A study of Drosophila melanogaster with 2 samples.

Results

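Of 2758 thresholded binding peaks of the protein CG12744 in whole Drosophila melanogaster embryos, 437 lay deep inside introns. A peak was counted as deep intronic when its summit, the position of highest signal, lay in a gene, in no annotated exon, and more than 2000 bp from every annotated transcript start. These 437 peaks were 15.8% of the list, with an exact 95% interval of 14.5% to 17.3%. The peaks came from chromatin immunoprecipitation and sequencing of a transgenic fly line in which CG12744, assayed here as a transcription factor, carries a C-terminal GFP tag. Chromatin of embryos of both sexes, collected at 0 to 24 h, was sonicated to fragments of 200 to 800 bp and precipitated through the tag, with anti-GFP. The study has 1 group of 2 biological replicates, which the labels number 2 and 4, and therefore no comparison between conditions. Whole embryos were pooled over all embryonic stages and tissues, so the cells in which a site was bound cannot be told from these lists. The promoter that drives the tagged protein is not given in the sources used here.

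Introns are the stretches of a gene that are removed from its transcript by splicing. In flies, the long introns of developmental genes are known to hold many of their enhancers, which are short DNA segments where transcription factors bind and regulate a start site at a distance. Signalling genes and genes for transcription factors often have such introns, and the first intron is commonly the longest. A binding peak inside an intron does not by itself name the gene it acts on, so each gene below is called the host of a peak and not its target.

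The sequences under 6 of the highest deep intronic peaks are shown because the later comparisons rest on letters within or just beside them. Peaks on 1 chromosome arm, the second highest among them, are not shown here. Each is the 81 bases centred on the summit, 5′ to 3′ on the plus strand, from the RefSeq Release 6 sequence, the build the lists call dm6. Capitals mark the 5-base core CACTG on either strand.
Tlk (chrX:3742195-3742275, plus strand): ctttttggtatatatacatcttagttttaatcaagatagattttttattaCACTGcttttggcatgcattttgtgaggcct
CG32486 (chr3L:3060781-3060861, plus strand): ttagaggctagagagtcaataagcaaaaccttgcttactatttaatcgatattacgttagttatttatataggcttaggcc
CG34417 (chrX:6549835-6549915, plus strand): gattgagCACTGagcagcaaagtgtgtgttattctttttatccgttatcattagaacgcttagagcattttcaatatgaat
Raf (chrX:2297688-2297768, plus strand): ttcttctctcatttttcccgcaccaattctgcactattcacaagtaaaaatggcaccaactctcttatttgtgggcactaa
JIL-1 (chr3L:11084754-11084834, plus strand): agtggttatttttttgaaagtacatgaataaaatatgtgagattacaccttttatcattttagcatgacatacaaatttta
trx (chr3R:14283838-14283918, plus strand): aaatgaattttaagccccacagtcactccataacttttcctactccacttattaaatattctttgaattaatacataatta
The core stood within 40 bp of the summit in Tlk and CG34417 and was not among these letters in the other sequences.

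A further arrangement lay at a distance from the summit. The 7-base sequence TACACTG occurred, like its variant TGCACTG and a further variant, TACAGTG, mostly 50 to 125 bp from it and mostly in 1 orientation, so that the summit lay downstream when the site was read 5′ to 3′. The 4 highest peaks for each of these heptamers, outside the same arm, are printed on the strand of the site with 9 bases before it and 18 after, and capitals mark the heptamer.
JIL-1 (chr3L:11084838-11084871, minus strand): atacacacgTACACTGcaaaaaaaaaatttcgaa
Gug (chr3L:8458232-8458265, plus strand): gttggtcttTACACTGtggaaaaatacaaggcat
dlp (chr3L:14666063-14666096, plus strand): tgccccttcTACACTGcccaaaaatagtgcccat
eff (chr3R:14738719-14738752, minus strand): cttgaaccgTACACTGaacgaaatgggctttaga
CG34417 (chrX:6549961-6549994, minus strand): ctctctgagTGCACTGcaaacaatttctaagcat
ImpL2 (chr3L:4230391-4230424, plus strand): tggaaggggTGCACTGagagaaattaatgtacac
Nuak (chr3R:10268496-10268529, plus strand): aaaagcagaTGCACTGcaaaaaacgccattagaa
Smr (chrX:12735697-12735730, minus strand): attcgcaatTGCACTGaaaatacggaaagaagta
Raf (chrX:2297778-2297811, minus strand): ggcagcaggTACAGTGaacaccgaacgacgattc
CG33158 and aos (chr3L:16480467-16480500, plus strand): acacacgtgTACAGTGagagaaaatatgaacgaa
CHES-1-like (chrX:7700314-7700347, plus strand): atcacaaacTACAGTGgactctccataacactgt
fz (chr3L:14303973-14304006, plus strand): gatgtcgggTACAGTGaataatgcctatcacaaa
In ImpL2 and Smr, among others, a stretch rich in A and G follows the heptamer. Each site is named for the host of its peak.

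The offset was a property of most of the sites and not of a few peaks. Within 200 bp of the 437 summits there were 229 heptamer sites, of which 193 had the summit downstream and 36 had it upstream. Between 125 and 50 bp upstream of the summit there were 128 sites, against 10 in the mirror range downstream, and the median offset of the 128 was 86 bp. The most sites in any 25 bp, 50 of them, lay 75 to 100 bp upstream. In all, 107 of the 437 peaks (24.5%) had a heptamer in the upstream range and 10 (2.29%) had one in the downstream range. At points 1000 bp to either side of the same summits, 20 (4.58%) and 12 (2.75%) of 437 had one in the upstream range. The heptamers and the range were chosen after the values were seen, so these counts are descriptions with no test.

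**Figure D1:**
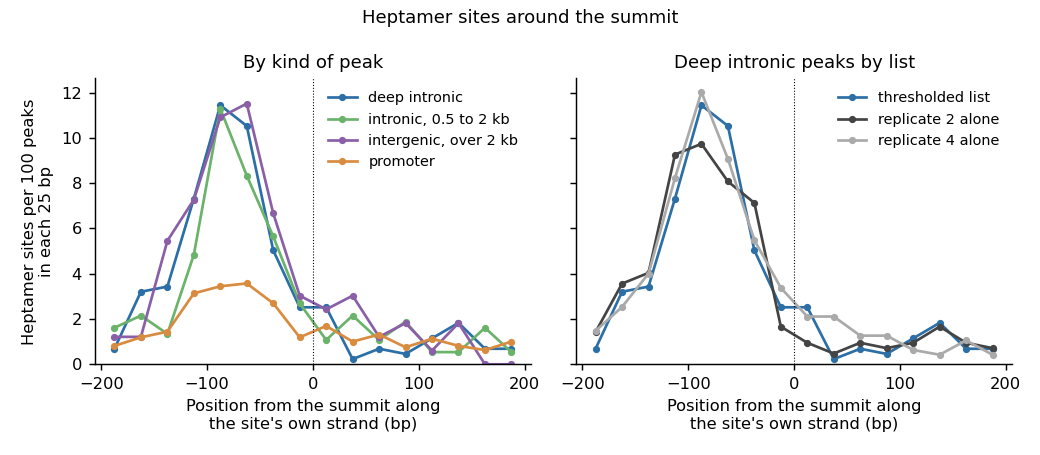
Heptamer sites per 100 peaks in bins of 25 bp, by position from the summit (bp, 0 at the summit) along the strand of the site, for 4 kinds of peaks (left) and for deep intronic peaks of 3 lists (right). Deep intronic peaks have 11.4 sites per 100 peaks in the bin 75 to 100 bp upstream and 0.457 in the bin 75 to 100 bp downstream.

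The replicates showed the same offset when their own summits were used. Among the 2758 highest peaks of replicate 2 alone there were 421 deep intronic peaks, with 115 heptamer sites in the upstream range and 11 in the downstream range. Replicate 4 alone gave 474 deep intronic peaks. Of these 112 (23.6%) had a heptamer in the upstream range, beside 98 (23.3%) in replicate 2. Both replicates come from the same fly line, and the letters searched are those of the reference genome in each. The heptamers and the range were chosen on a list made from these same replicates, so the likeness is not an independent check.

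The orientation was seen in other kinds of peaks as well, and the share was lowest at promoter peaks; these shares were not tested. A heptamer stood in the upstream range at 78 of 372 intronic peaks 500 to 2000 bp from a start (21.0%), at 42 of 165 intergenic peaks beyond 2000 bp (25.5%) and at 144 of 1596 promoter peaks within 500 bp (9.02%). The fourth form, TGCAGTG, had 6 sites in the upstream range and 16 in the downstream range of deep intronic peaks. Both strands were read for each form. A TACACTG or TGCACTG followed by CA therefore also counts as TGCAGTG on the other strand, with the summit on its other side. The printed JIL-1, CG34417 and Nuak sites are such cases, so the 16 are not a separate set of sites, and their overlap was not counted. In the same way, a heptamer followed by TA can count in both ranges. Of the 128 upstream sites of the 3 heptamers at deep intronic peaks, 47 were TACACTG, 48 were TGCACTG and 33 were TACAGTG, so no single one made up most of them. The gene's direction did not fix the direction of the site: of 103 peaks with an upstream heptamer and hosts on 1 strand, 58 had the site on the strand of the host and 45 on the other.

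The bases after the heptamer were also shared. Counted with the first T of the heptamer as position 1, the 95 upstream sites of TACACTG or TGCACTG had A at 86.3% at position 12, 83.2% at position 13 and 82.1% at position 14. At position 11 they had A in 46.3% and G in 45.3%. Beyond position 14 the letters spread again, and A was at 33.7% at position 15. The 33 sites of TACAGTG had less A at these positions, with 30.3% at position 12, 21.2% at position 13 and 45.5% at position 14, while G stood before the heptamer in 66.7% of them. The 9-base sequence CACTGAGAG joins the core to this stretch. It occurred 26 times within 200 bp of a deep intronic summit, 25 times with the summit downstream. Deep intronic sequence as a whole holds 490 copies of CACTGAGAG, of which 26 (5.31%) lie within 150 bp of a deep intronic summit, against 1.70% of 4238 copies of TACACTG, 1.19% of 6797 copies of TGCACTG and 1.37% of 3728 copies of TACAGTG. Most copies of each were therefore not under a thresholded deep intronic peak. CACTGAGAG contains CACTGAGA and ACTGAGAG, which were both called as more frequent at these same summits than in flanks. Its higher share is thus not independent of how it was chosen, and these shares were not tested. Repeat annotation was not used here, and whether some sites belong to a repeated element was not tested.

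A list of 37 motifs was counted on either strand, up to 100 bp from the summit and in a flank of equal length 1000 bp away. Of these 1 passed an adjusted p of 0.05, which is 2.7% of the motifs tested. The core CACTG was present at 224 of 437 summits (51.3%) and at 128 flanks (29.3%), with a log2 odds ratio of 1.34 and an adjusted p of 4.22e-09 by an exact binomial test on peaks where only one of summit and flank held it. The motif list was chosen with earlier results of these data known, so this p-value is not an independent test of the core. The core lies inside several of the other sequences named here, among them TACACTG and the longer CAACACTG, so these are not separate results. Within 50 bp of the summit the difference fell to a log2 odds ratio of 0.43 with an adjusted p of 0.578, in a window that leaves out the range where most heptamer sites lay. The share of C and G was lower at the summits, with a median of 35.8% against 39.8% in the flanks, and its part in the motif counts was not tested.

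Motifs of factors known to act in embryonic enhancers did not pass the test against flanks. The forkhead motif TGTTTAC was at 40 summits (9.15%) and 20 flanks (4.58%) with an adjusted p of 0.112 by the exact binomial test. GATA, written AGATAA, was at 74 summits (16.9%) and 51 flanks (11.7%) with an adjusted p of 0.269. Scalloped, the partner of Yorkie in the Hippo pathway, has the motif GGAATG, which was at 21 summits (4.81%) and 42 flanks (9.61%) with an adjusted p of 0.112. Core promoter motif 6, GTATNTTT, which is not of that kind, stood at 52 summits and 30 flanks and had an adjusted p of 0.118. Including the core, 5 of 37 motifs had an unadjusted p under 0.05. The heptamer of the early embryonic activator Zelda, CAGGTAG, was at 7 summits (1.60%) and 4 flanks (0.915%), and the GAGA motif GAGAGAG at 17 of each.

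Promoter peaks carried a different set of motifs. Of the 37 motifs, 8 (21.6%) differed between deep intronic and promoter summits at an adjusted p under 0.05 by Fisher's exact test, 2 of them more frequent and 6 less frequent at deep intronic summits. The element TATCGATA of Dref, a factor at promoters of broadly expressed genes, was at 3 deep intronic summits (0.686%) and 122 promoter summits (7.64%), with a log2 odds ratio of -3.37 and an adjusted p of 6.24e-09. The core promoter motif GGTCACAC bound by M1BP was at 0 of 437, which allows a share of up to 0.686% by the limit of 3 counts (0.841% by the exact interval), and at 75 promoter summits (4.70%), with an adjusted p of 1.10e-07. Both are motifs of start sites, which the choice of deep intronic peaks keeps at a distance. Core promoter motif 7, CANCNCTA, was at 4.58% of deep intronic and 17.2% of promoter summits, with an adjusted p of 1.37e-11. CGATA, the part of the site shared by Dref and the boundary factor BEAF, was at 22.0% and 37.5%. Motif 7, and CGATA as a part of the Dref site, are kept at a distance by the same choice. For these start-site motifs the difference cannot be told apart from how the peaks were chosen. The longer form CAACACTG was at 4 deep intronic summits (0.915%) and 97 promoter summits (6.08%), with an adjusted p of 4.95e-06.

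For the core itself a difference between these kinds was not shown over the whole list. CACTG was at 51.3% of deep intronic and 46.8% of promoter summits, with an adjusted p of 0.228 by Fisher's exact test. Among the 1379 peaks with the highest signal CACTG was called as more frequent at deep intronic than at promoter summits. The log2 odds ratio was 0.69 and the adjusted p 0.0281 by Fisher's exact test. The sequence CAGCTG, listed here as an E-box of proneural and mesodermal factors, was less frequent at deep intronic summits, at 7.09% against 11.97%. The adjusted p was 0.0185 by Fisher's exact test. It was at 8.24% of the flanks, 8.60% of nearer intronic and 3.64% of intergenic summits, so promoter summits had the highest share. Whether this difference, like those of the start-site motifs, comes from how the peaks were chosen was not tested. The more frequent motifs were TGCATA, part of the site of the insulator protein Su(Hw), at 17.8% against 12.3% with an adjusted p of 0.0185, and GATA at 16.9% against 12.2% with an adjusted p of 0.0490. Some of these calls were lost under other choices. With replicate 4 alone the adjusted p was 0.440 for TGCATA and 0.0598 for GATA, and with replicate 2 alone it was 0.0189 and 0.0758. In the 1379 peaks with the highest signal the adjusted p was 0.109 for the M1BP motif, 0.183 for CAACACTG and 0.352 for the E-box, and with a limit of 5000 bp it was 0.0526 for CAACACTG.

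**Figure D2:**
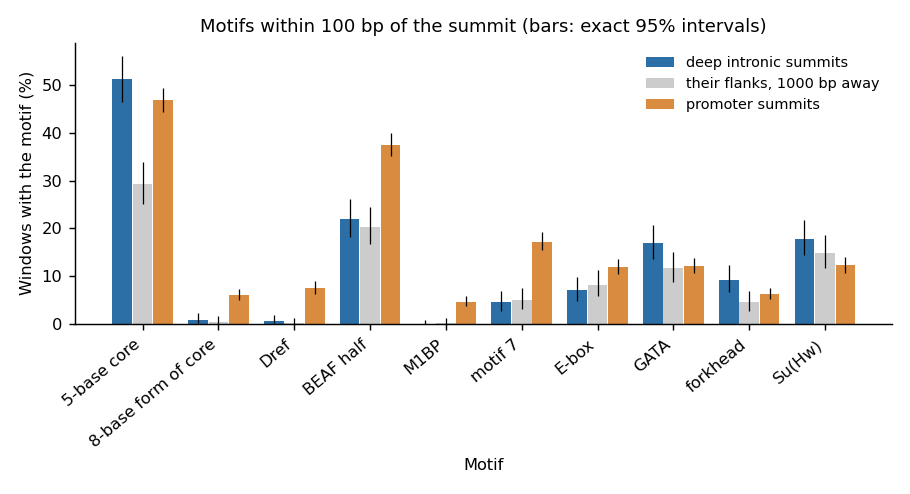
Share of windows (%) that hold a motif within 100 bp of 437 deep intronic summits, in their flanks 1000 bp away, and within 100 bp of 1596 promoter summits, with exact 95% intervals as error bars. The 5-base core is at 51.3% of deep intronic summits and 29.3% of flanks, and the Dref and M1BP motifs are at 0.686% and 0 of deep intronic summits against 7.64% and 4.70% of promoter summits.

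A count of all 8-base sequences, with no motif list, gave letters that overlap these sites. Of 4165 sequences seen in at least 10 windows, 9 (0.216%) were called as more frequent at deep intronic summits than in flanks and 0 as less frequent. The threshold was an adjusted p under 0.05 by Fisher's exact test, and 232 had an unadjusted p under 0.05. Unlike the motif test against flanks, this test did not pair each summit with its own flank. CTGAGAGA was at 24 summits (5.49%) and at 0 flanks, which allows up to 0.686%, with an adjusted p of 0.000359. ACTGAGAG was at 23 summits and 0 flanks, TGAGAGAA at 29 and 2, TACACTGA at 26 and 2, and CTCAGTGC at 21 and 1. These sequences overlap one another along the heptamer and the A and G stretch after it. CTGAGAGA was at 1.32% of promoter summits, 1.88% of intronic summits 500 to 2000 bp from a start and 6.67% of intergenic summits, so its share in deep introns lay nearest to that in intergenic sequence; these shares were not tested. The counts of 0 hold for the flank side that was drawn. With flanks on the other side the log2 odds ratio fell from 5.70 to 2.88 for CTGAGAGA and from 5.63 to 3.30 for ACTGAGAG. The adjusted p values there were 0.0197 and 0.0104 by Fisher's exact test. With replicate 2 alone the adjusted p was 0.285 for both TACACTGA and CTCAGTGC.

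The deposited signal is the value the peak caller gave each peak, on a scale that is not stated. Its upper tail was shorter at deep intronic peaks than at promoter and nearer intronic peaks. Over the 437 the signal ran from 68.5 through a median of 94.6 to 609, and its quartiles were 79.2 and 122. Promoter peaks had a median of 101, an upper quartile of 146 and a highest value of 1138. Intronic peaks 500 to 2000 bp from a start had 102, 150 and 1148. Intergenic peaks had an upper quartile of 126 and a highest value of 552. The median was 89.9 for intergenic peaks and 99.1 for the whole list. Deep intronic peaks were scarce among the highest peaks. Among the 10% of all peaks with the highest signal there were 16 of them (3.66%). Promoter peaks had 187 (11.7%), a difference of -1.76 in log2 odds with an adjusted p of 2.15e-07 by Fisher's exact test, and nearer intronic peaks had 44 (11.8%), with -1.79 and 1.66e-05. Intergenic peaks had 12 (7.27%), which gave -1.06 and an adjusted p of 0.0804, so that no difference from them was shown. These tests take peaks as the unit, and 119 of the 437 lie within 5000 bp of another deep intronic peak.

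The share of deep intronic peaks grew towards weaker peaks. In the pooled list made from both replicates it was 9.0% among ranks 1 to 500, 15.6% among ranks 501 to 1000 and 17.9% among ranks 1001 to 2758. Below the threshold it was 21.1% for ranks 2759 to 10000 and 27.3% for ranks 10001 to 30000, while deep intronic sequence makes up 30.9% of the chromosome arms. Promoter peaks went the other way, from 64.0% to 25.6%.

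Replicate support was close to that of the whole list. A peak was counted as found in a replicate when a summit lay within 100 bp among its 2758 highest peaks. Of the deep intronic peaks, 350 (80.1%) were found in replicate 2, 356 (81.5%) in replicate 4 and 279 in both. That is 63.8%, with an exact 95% interval of 59.1% to 68.4%, beside 64.3% of all thresholded peaks. Promoter peaks had 64.1%, a log2 odds ratio of -0.02 with an adjusted p of 0.955 by Fisher's exact test, nearer intronic peaks 66.9% (adjusted p 0.562) and intergenic peaks 58.8% (adjusted p 0.562). A difference was not shown for any of these 3, which does not show that the shares are equal.

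Being found in both replicates is itself a cut on signal, since only the 2758 highest peaks of each count. With the deep intronic peaks split into 4 near-equal sets from highest to lowest signal, 94.5%, 92.7%, 64.2% and 4.55% were found in both replicates, and 71 peaks were found only in replicate 2, 77 only in replicate 4 and 10 in neither. Spearman's correlation between the replicates' signals was 0.463 over the 418 peaks with a summit in both whole lists, against 0.634 over 1492 promoter peaks; this is a description across peaks of 2 libraries. Of the 437, 418 (95.7%) had a summit within 100 bp in both whole lists. The 107 peaks with a heptamer in the upstream range had a median signal of 104.3 and were found in both replicates in 76.6%, with an interval of 67.5% to 84.3%, while the 330 without had a median of 91.6 and 59.7%, with an interval of 54.2% to 65.0%. In the whole lists these shares were 99.1% and 94.5%, and the part of signal in the difference was not tested. In the same 4 sets the heptamer was present in 27.5%, 33.9%, 22.9% and 13.6%. Among the 37 motifs, 0 differed between peaks above and below the median signal at an adjusted p under 0.05 by Fisher's exact test, and 2 did at an unadjusted p under 0.05; the core was at 57.8% of the higher and 44.7% of the lower peaks, with an adjusted p of 0.272.

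**Figure D3:**
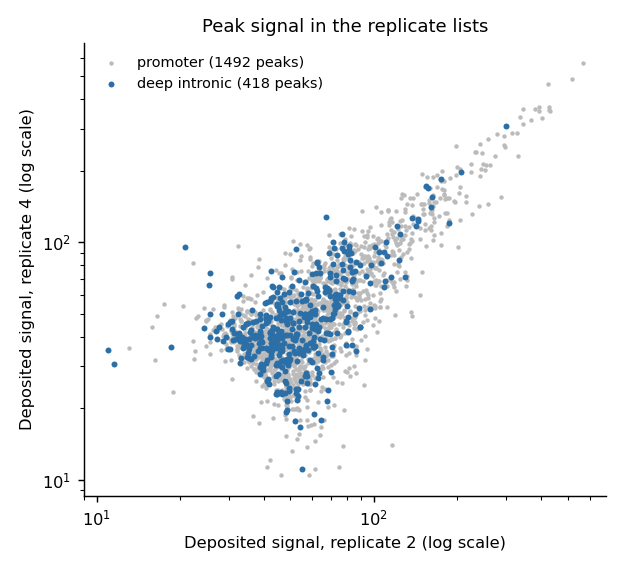
Deposited signal in replicate 2 (x axis) and replicate 4 (y axis), both on log scales, for 418 deep intronic and 1492 promoter peaks found in both whole replicate lists, 1 point per peak. The highest deep intronic peak, in Tlk, stands at 300.1 and 309, and most others lie below 100 in both.

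Along the genome the peaks thinned out with distance from start sites. Their median distance to the nearest start was 4821 bp, the quartiles were 3103 and 7665 bp, and the farthest was at 47229 bp. Per Mb of intron sequence at the same distance there were 19.3 peaks at 2 to 3 kb, 16.3 at 3 to 5 kb, 12.02 at 5 to 10 kb, 5.95 at 10 to 20 kb and 2.66 beyond 20 kb, where 23 peaks lay. The nearer intronic peaks continued this order, with 40.8 per Mb at 500 to 1000 bp and 27.4 at 1000 to 2000 bp. The density fell from each bin to the next, across the 2000 bp limit too. The peak just inside it, in lncRNA:CR44320 on chromosome arm 3R with its summit at 26228245, was 2003 bp from a start and had a signal of 139, and the intronic peak just outside it, in crol at 11806974 on arm 2L, was at 1998 bp with 73.6.

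**Figure D4:**
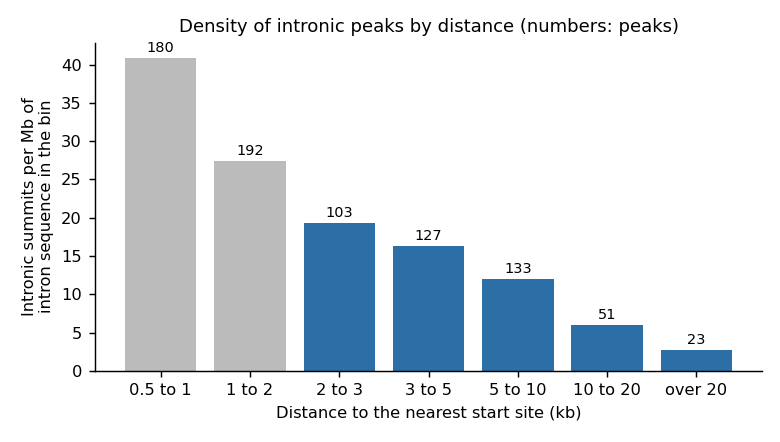
Intronic summits per Mb of intron sequence (y axis) by distance to the nearest start site in kb (x axis), with the number of peaks above each bar. Blue bars are the deep intronic peaks, which fall from 19.3 to 2.66 per Mb, and grey bars are intronic peaks nearer to a start, at 40.8 and 27.4 per Mb.

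Most of the peaks lay in long introns, and most in a first intron. The median host intron was 12916 bp long and the longest 126467 bp. In 278 cases (63.6%, interval 58.9% to 68.1%) the intron was the first of some transcript, whereas first introns make up 37.6% of the sequence that meets the rule; distance to the start was not held fixed in this comparison. For 306 peaks (70.0%) the nearest start belonged to the host gene, and for 131 it belonged to another gene. On the 5 large arms the interval of the share of peaks held the share of deep intronic sequence. Arm X held 101 peaks (23.1%, interval 19.2% to 27.4%) against 19.3% of the sequence and 3R held 100 (22.9%, interval 19.0% to 27.1%) against 27.1%. Chromosome 4, with 1.08% of the sequence, held 0 of 437, which allows a share of up to 0.686% by the limit of 3 counts and 0.841% by the exact interval.

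The highest deep intronic peak stood in the first intron of Tlk, the Tousled-like kinase of chromatin assembly, on arm X at 3742235. Its signal was 609, and it had 300.1 in replicate 2 and 309 in replicate 4, ranks 24 and 19 of those lists. It was the only deep intronic peak above 500. The next were in CG12769 on 2R at 8061003 (401), CG32486 on 3L at 3060821 (359) and CG34417 on X at 6549875 (329). Raf, the kinase between Ras and the MAP kinase cascade, had a peak of 326 on X at 2297728, with 156 and 169 in the replicates. Both replicates placed these first 5 peaks among their 133 highest.

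The other hosts among the 15 highest peaks have varied roles, and no theme was tested in them. JIL-1, a kinase of histone H3, held one at 11084794 on 3L with a signal of 317. The histone methyltransferase gene trx had one at 14283878 on 3R with 304, where replicate 2 gave 187 and replicate 4 gave 121. Gug, which encodes the corepressor Atrophin, had 304 at 8458337 on 3L, and Mi-2, the ATPase of a nucleosome remodelling complex, shared one of 226 at 19903285 on 3L with Su(Tpl), an elongation factor gene. The gene aos, for the secreted inhibitor of the EGF receptor, shared a peak of 266 at 16480574 on 3L with CG33158. S, or Star, which is needed to process the ligand Spitz, had one of 238 at 1072383 on 2L. The others were Pits at 12579688 on X (268), Lrch at 17378856 on 2L (259), Hr3 with CG12912 and CG46321 at 10220040 on 2R (264), and Hr4 at 1947735 on X (209.8).

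The 437 peaks had 310 host genes, 209 of them with 1 peak, 64 with 2 and 37 with 3 or more. The most were in sbb, a transcriptional corepressor also called scribbler or brakeless, on 2R, whose first intron of 49364 bp held 8 summits with signals from 78.3 to 153. Of these 6 were found in both replicates, including the highest at 18354257, with 83.0 and 68.4. Raf held 5 in 1 intron of 43637 bp, between 2297728 and 2304089, and all 5 were found in both replicates. The Ste20-type kinase gene msn, which acts in the JNK and Hippo pathways, held 5 in 2 introns with signals from 91.9 to 126. Its highest, at 2584169 on 3L, had 69.7 in replicate 2 and nothing within 100 bp in replicate 4. lncRNA:CR44999 on X held 5, each of which also lay in an intron of CG12535 or Myc. The nuclear receptor gene Hr4 held 4, with 209.8 and 207 at 1947735 and 1951912. In all, 28 peaks lay in 2 or more overlapping genes, and 9 had no protein-coding host.

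Hosts with more deep intronic sequence more often held a peak. Of 4333 genes with any such sequence 310 (7.15%) were hosts, from 2 of 1875 genes with up to 1 kb (0.107%) to 58 of 169 genes with more than 50 kb (34.3%). Hosts also had promoter peaks more often: 100 of 310 (32.3%, interval 27.1% to 37.8%) against 700 of 4023 other genes with such sequence (17.4%, interval 16.2% to 18.6%). Within each size class above 5 kb the shares were 32.5%, 34.8% and 34.5% for hosts and 15.9%, 15.9% and 9.01% for the rest. Between 1 and 5 kb they were 19.5% and 17.3%. These shares were not tested.

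Gene groups are given by their hosts and by peaks per Mb of their own deep intronic sequence, beside 10.6 per Mb over all such sequence and 7.15% of genes. The lists hold 770 symbols, of which 732 were found in the annotation, 534 have deep intronic sequence and 85 are hosts. Density fell with distance from start sites, from 19.3 per Mb at 2 to 3 kb to 2.66 beyond 20 kb. Genes with more such sequence were more often hosts, from 0.107% with up to 1 kb to 34.3% above 50 kb. Neither was held fixed for the lists, and their part in the list values was not tested. Some genes are in more than 1 list. Lists differ in size, and no test was made of any of them.

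In the EGF receptor and MAP kinase pathway, which relays growth and differentiation signals, 8 of 15 genes were hosts, with 17 peaks and 68.4 per Mb. Their median signal was 118, and 14 of the 17 were found in both replicates. Beside Raf, aos and S, the hosts were vn, a ligand, aop and pnt, the repressor and activator of the ETS family, cic, a repressor relieved by the pathway, and Egfr, the receptor. The highest in vn had a signal of 129 with 69.1 and 62.2 in the replicates. The only one in Egfr had 70.2, with 27.2 and 39.0, near the lower end of the list. Chromatin regulators of the Polycomb and trithorax groups have little intron sequence, 0.0862 Mb in 36 genes, and 4 of them, trx, Mi-2, Psc and ph-p, held 5 peaks, 58.0 per Mb.

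Other signalling pathways also stood above the mean density. The Hippo pathway list had 10 peaks in 4 of 16 genes, 40.7 per Mb, of which 5 were in msn and the next highest gene, ex, an upstream regulator, had 86.4. The Dpp pathway, a BMP pathway, had 7 peaks in 4 of 14 genes (37.8 per Mb). Its highest hosts were Dad, the inhibitory Smad, with a signal of 194 (104.4 and 90.7 in the replicates), and shn, a zinc finger cofactor of the Smads, with 140.3. The Hedgehog list had 3 peaks in 3 of 9 genes (28.0 per Mb), with the receptor ptc at 101 and the kinase Pka-C1 at 89.9. The Wnt list had 10 in 6 of 20 genes (26.2 per Mb), led by the receptor fz and the glypican dlp. In fz the replicates differed, with 67.2 in replicate 2 and 127 in replicate 4, and in dlp they gave 77.9 and 99.9. The Notch list had 5 in 2 of 13 genes (25.2 per Mb), 4 of them in mam, the coactivator, and 1 in the receptor gene N.

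Transcription factor lists were mixed. Nuclear receptors and ecdysone response genes had 14 peaks in 6 of 20 genes (28.6 per Mb), including 4 each in Hr4 and Eip75B, and 10 of the 14 were found in both replicates. The forkhead and odd-skipped families had 4 peaks in CHES-1-like and jumu, 2 of 11 genes, and 73.3 per Mb rests on 0.0546 Mb; the highest, in CHES-1-like, had 201, and 1 of the 4 was found in both replicates. Segmentation and Hox genes were near the mean, with 6 peaks in 3 of 19 genes (14.2 per Mb), led by the Hox genes Antp with 107 and abd-A with 94.0. Other developmental transcription factors had 11 in 7 of 46 genes (12.2 per Mb), led by ush, a cofactor of GATA factors, with 157 and grh, the epithelial factor Grainyhead, with 149.

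The muscle, junction and tracheal lists stood above the mean density, and the value of the glial list rests on 1 peak. Muscle genes had 6 peaks in 5 of 21 genes (23.2 per Mb), with the muscle differentiation factor Mef2 at 179 and the Z-disc protein gene Zasp52 at 109.9, and 2 of the 6 were found in both replicates. Junction and adhesion genes had 10 in 5 of 32 (18.7 per Mb), led by the integrin gene mew with 128 and the adhesion gene ed with 118. Tracheal and tube genes had 6 in 5 of 20 (15.8 per Mb), led by grh and rib. Glial genes had 1 in 12 (13.1 per Mb), in pnt with 109, a host share of 8.33% beside 7.15% of all genes with such sequence. That pnt peak is also counted in the EGF receptor list, and the muscle host how is also in the RNA-binding list. Of the tracheal hosts, grh, sim and hth are also in transcription factor lists. Below the mean, signalling kinases and phosphatases had 7 in 6 of 40 (7.28 per Mb), with the insulin receptor gene InR at 175 and the cGMP-dependent kinase gene for at 127.

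The lists of RNA-binding, guidance, ion channel and synapse genes stood below the mean density. RNA-binding regulators had 8 peaks in 7 of 27 genes but 5.58 per Mb, led by Rbfox1 with 123 and shep with 122. Axon guidance and cell recognition genes had 11 in 8 of 56, 4.21 per Mb of 2.62 Mb, led by kirre, a recognition protein of founder myoblasts, with 169 and by the repellent gene sli with 133. Ion channel genes had 1 in 34, in Ih at 86.2. Synapse and neurotransmitter genes had 0 hosts in 53 genes, which allows a share of up to 5.66%, with 0 peaks in 1.05 Mb. Cytosolic ribosomal protein genes have no sequence that meets the rule.

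**Figure D5:**
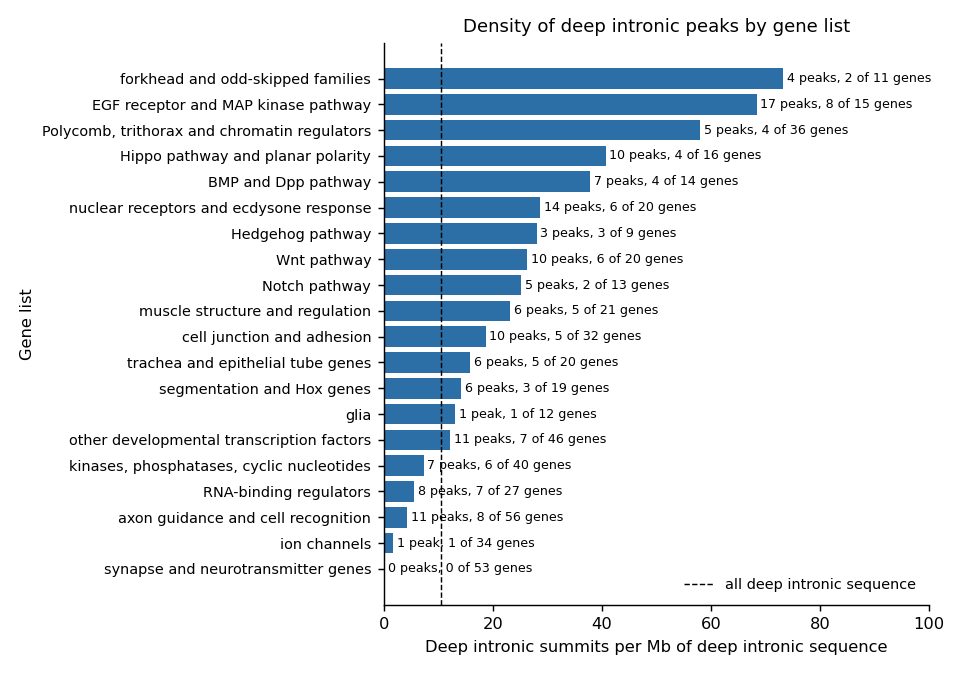
Deep intronic summits per Mb of deep intronic sequence (x axis) in 20 gene lists (y axis), with the number of peaks and of host genes beside each bar and a dashed line at 10.6 per Mb for all such sequence. The EGF receptor and MAP kinase list stands at 68.4 and the synapse list at 0.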

How the data were processed

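Per the deposited records, the authors called peaks on each replicate and on both replicates together, each with a control that was not analysed here, and thresholded the lists by the irreproducible discovery rate, which weighs how alike peaks rank in replicates. The signals of the 2758 thresholded peaks are the same as those of the 2758 highest peaks of the pooled list. A place in the thresholded list is thus a cut on pooled signal and does not by itself show that the replicates agree at that peak. Apart from this comparison, the deposited signal value of each peak served only for ranking and description inside 1 list. Neither the program that called peaks nor the aligner is stated in the sources used here, and read depth is unknown. All lists are on dm6 (Release 6), 2758 thresholded peaks and 30000 in each other list, and the number of per-sample columns left unused in them was 0; the dm3 lists were not used here.

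Summits were placed on the Ensembl release 115 annotation without transposable elements, and sequence came from RefSeq Release 6. Deep intronic peaks have a median width of 410 bp, the greatest among them, which 399 of the 437 have. Coordinates are 1-based. Motif windows were 201 bp, and each flank lay 1000 bp to a side drawn with a fixed seed. Tests were exact binomial or Fisher's exact, 2-sided, adjusted by Benjamini-Hochberg within each family, and log2 odds ratios had 0.5 added to each count. Intervals are exact 95% binomial (Clopper-Pearson) and, like the limits given for a count of 0 (3 counts of the total), cover counting error only. p-values are over peaks of 1 group and measure no spread between embryo collections.

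The peak class, motifs and gene lists were chosen with earlier results of these data known. Genes were named by rule: hosts of the 15 highest peaks, the 5 hosts with most peaks, up to 2 hosts with the highest peaks per list, and, by odds ratio, the first 5 motifs and the first 5 sequences of 8 bases. The further EGF receptor, Polycomb and Hr4 or Eip75B hosts were added after their values were seen. So were the GATA and Su(Hw) motifs, the E-box, the motifs below the threshold, the heptamers and CACTGAGAG. The result of 1 gene list is not reported here. The statistics were tested on simulated data. Python 3.11.15, numpy 2.4.6, scipy 1.17.1 and matplotlib 3.10.9 were used.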

Additional observations from a re-analysis of the deposited data

How the results depend on the processing

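Of 66 alternative values for the 8 main results, 49 stayed close to the reported one and 17 did not. A change of direction could be scored only for replicate support and the highest peaks against promoter peaks. None was seen there past the threshold. The other main results are shares or numbers of calls, which have no direction. The deep intronic share of 15.8% became 14.1% in the 1379 peaks with the highest signal, 22.8% with a limit of 1000 bp and 7.51% with 5000 bp, and was 15.3% to 17.2% with either replicate alone. The share found in both replicates, 63.8%, became 94.4% in those 1379, 50.1% with summits within 50 bp and 95.7% against the whole replicate lists.

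Motifs called against flanks numbered 1 to 2 with either replicate alone, the second being TATA in replicate 4. They were 2 with the 1000 bp limit (GATA added), with flanks 500 bp away (forkhead added) and with flanks on the other side (Scalloped, lower). Within 50 bp of the summit the call was forkhead and not CACTG, although the number of calls was the same. Motifs called against promoter peaks fell from 8 to 5 in those 1379 and were 6 to 11 with either replicate alone. The 2 called as more frequent became 5 with replicate 2 alone and 0 with replicate 4 alone, while 6 were less frequent with each. The 9 called 8-base sequences became 0 in those 1379, 0 with the 5000 bp limit, 0 within 50 bp of the summit, 14 with the 1000 bp limit and 21 with flanks 500 bp away, and 49 sequences were called at 6 bases; the first 3 rest on fewer peaks or shorter windows, and the cause of the others was not tested. They were 7 to 11 with either replicate alone.

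The log2 odds against promoter peaks among the highest 10% were -1.73 to -1.56 with either replicate alone, an alternative added after seeing the data. Of 145 values for single motifs and 8-base sequences, 27 lost the threshold, 6 of them for GATA and 3 for TGCATA against promoter peaks, 1 gained it (CACTG against promoter peaks in those 1379), and 0 changed sign with a call. No paired analysis was possible because there is 1 group. Unknown read depth, 2 replicates and whole embryos limit every value.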
